A study of Mus musculus with 2 samples.

Results

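The Krüppel-like factors (Klf genes), the related Sp factors, the CCAAT/enhancer-binding proteins (Cebp genes) and the early B cell factors (Ebf genes) were compared between epididymal white adipose tissue of a chow-fed mouse and of a mouse on a high-fat diet. Zfp423, Zfp521 and Gata3, 3 further transcription factors of the fat cell lineage, were taken with them. Members were all probe sets with a single gene symbol that names one of these factors. The rule itself uses no measured value, but it was set with earlier results of these data known. There were 83 such probe sets for 34 genes, out of 18193 genes named on the array. Both groups were male C57BL/6 mice, and the dietary challenge began at 9 weeks of age. The chow group was 1 array from 1 mouse on a normal chow diet, and the high-fat diet group was 1 array from 1 mouse after 7 weeks on that diet. The whole fat pad was extracted, so fat cells, progenitors, vessels and immune cells contribute to each value, and fewer cells of a type cannot be told apart from less RNA per cell. There were no replicates, so the differences have no replicate check, and the words higher and lower refer to this pair of arrays alone.

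Krüppel-like and Sp proteins bind CACCC and GC boxes in promoters through a carboxy-terminal block of zinc fingers, and different members activate or repress. Fat cell differentiation is a relay of such factors. Cebpb and Cebpd are induced early, and Pparg and Cebpa follow and hold the mature state. Krüppel-like factors act on the Pparg, Cebpa and Cebpb promoters at successive steps, and Ebf proteins act in commitment and in fat cell identity. Several members also have duties elsewhere, Klf2 and Klf4 in endothelium, Ebf1 in B cells, Gata3 in T cells and Klf1 in red blood cell precursors.

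Promoters of 4 members that the results turn on are shown to display the boxes that this family itself binds. They are Klf15 and Klf9, which were lower on the high-fat diet, Klf3, lower in all its probe sets above the floor, and Klf6, higher in all of its own. The floor is the 40th percentile of each array, at an intensity of 28.6 (chow) or 27.9 (high-fat diet). Each window is the 250 bases before the gene start from RefSeq, build GRCm38.p6, plus strand, 5′ to 3′. Capitals mark the GC box, GGGCGG, on either strand. They also mark the other box of this family, CACCC, on either strand, and adjoining or overlapping matches run together. The windows are chr6:90462326-90462575 for Klf15, chr19:23140976-23141225 for Klf9, chr5:64803271-64803520 for Klf3 and chr13:5861239-5861488 for Klf6.
Klf15: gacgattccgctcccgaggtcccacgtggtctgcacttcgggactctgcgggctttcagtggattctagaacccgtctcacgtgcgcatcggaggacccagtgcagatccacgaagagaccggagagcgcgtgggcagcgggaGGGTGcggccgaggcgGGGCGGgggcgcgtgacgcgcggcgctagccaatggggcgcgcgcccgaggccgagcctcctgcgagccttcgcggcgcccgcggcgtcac
Klf9: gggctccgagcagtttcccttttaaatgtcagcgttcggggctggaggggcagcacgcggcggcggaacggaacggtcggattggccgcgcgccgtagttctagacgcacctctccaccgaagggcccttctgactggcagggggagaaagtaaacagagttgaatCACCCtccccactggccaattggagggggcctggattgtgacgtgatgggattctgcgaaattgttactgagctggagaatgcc
Klf3: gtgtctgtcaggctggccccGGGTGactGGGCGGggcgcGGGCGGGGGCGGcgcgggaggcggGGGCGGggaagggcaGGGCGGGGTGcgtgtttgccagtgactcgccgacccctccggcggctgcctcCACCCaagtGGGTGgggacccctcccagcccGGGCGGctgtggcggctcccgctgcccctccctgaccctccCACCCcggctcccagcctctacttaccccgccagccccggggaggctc
Klf6: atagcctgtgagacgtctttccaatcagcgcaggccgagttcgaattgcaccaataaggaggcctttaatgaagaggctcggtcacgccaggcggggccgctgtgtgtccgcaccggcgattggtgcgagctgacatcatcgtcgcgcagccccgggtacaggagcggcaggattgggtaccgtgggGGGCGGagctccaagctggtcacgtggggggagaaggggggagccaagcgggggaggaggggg

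The Klf3 window held 6 GC boxes and 5 CACCC boxes, the Klf15 window 1 of each, the Klf9 window 1 CACCC box and no GC box, and the Klf6 window 1 GC box and no CACCC box. The RefSeq table had 30 such windows for 25 of the 34 members. A GC box occurred in 20 of the 30 windows (66.7%) against 32.7% of all 32851 windows of this length, and a CACCC box in 24 (80.0%) against 52.0%. The members' windows were also richer in G and C, with a median of 68.2% against 52.4% over all windows. The CCAAT box (CCAAT) was found in 14 member windows (46.7%, against 33.8% of all), and the E-box CACGTG, the core site of clock factors, in 4 (13.3%, against 6.02%). Of the 4 promoters shown, Klf15 had 2 E-boxes and Klf6 had 1. TATAAA, the TATA box, was found in 3 member windows (10.0%, against 12.4%). ACANNNTGT, the core of a glucocorticoid receptor site, was found in 1 (3.33%, against 5.84%). TTGCGCAA, a C/EBP motif, was found in none of the 30, against 0.164% of all windows. That share is too low for 30 windows to show a lack of the motif. All motifs were searched on both strands, and a match describes letters only.

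The members were lower more often than higher on the high-fat diet. Of the 34 genes, 30 reached the floor on at least 1 array, 29 of them on both, and 4 (Gata3, Sp4, Sp5 and Sp8) lay below it on both arrays. Of the 30 measured members 22 were lower (73.3%) and 8 higher (26.7%), against 52.9% lower and 46.8% higher among all 14066 measured genes. Klf15 and Klf16 were 2-fold or more lower, and no member was 2-fold or more higher. The background for that size was 1.33% lower and 1.16% higher. The median difference of the measured members, high-fat diet minus chow, was -0.24 log2 units, against -0.02 for all measured genes. Single probe sets scatter around the mean difference of their own gene with an SD of 0.37 log2 units at intensities under 100, 0.29 between 100 and 400, and 0.20 above 400. This probe error is the only error the 2 arrays offer, and it holds no difference between animals. Among the 29 members above the floor on both arrays, 14 were lower and 3 higher by more than this SD, against a background of 18.4% lower and 15.8% higher. Of 7 mesothelial markers, from the lining of the pad, 6 were lower. Their median difference was -0.70 (-0.30 with plain probe sets), with summed intensities of 1542.9 on chow and 1052.6 after high-fat feeding. Krt19, a keratin, and Wt1, a transcription factor of this lining, differed by -0.99 and -0.85. Msln, the marker that was higher, went from 73.9 to 101 (0.45). The part of mesothelial cells in the members' values was not tested. The plot of the members on each array shows the intensities one by one.

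**Figure D1:**
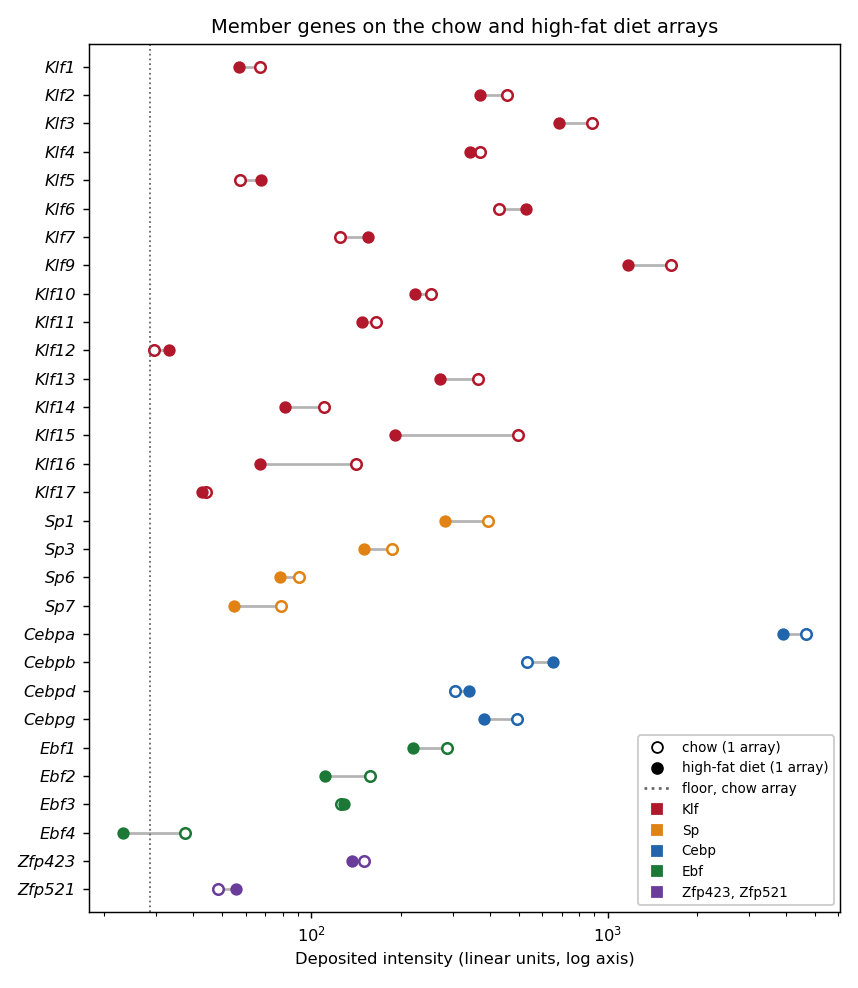
Deposited intensity (linear units on a log axis) of the 30 measured members on the chow array (open circle) and the high-fat diet array (filled circle), 1 array each, for the probe set that represents each gene. The dotted line is the floor of the chow array. The filled circle lies to the left of the open one for 22 genes, with the widest gap for Klf15 (496.7 to 191.6).

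Agreement among probe sets of a gene was used as a check within the arrays. Of the 60 member probe sets that both arrays measured, 42 were lower (70.0%) and 18 higher, against 52.4% lower over all such probe sets. For 14 members at least 2 probe sets were measured on both. All probe sets were lower for 7 of them, Cebpg, Ebf1, Ebf2, Klf3, Klf4, Klf9 and Klf13, and all were higher for 4, Cebpd, Ebf3, Klf5 and Klf6. The probe sets of Cebpb, Klf7 and Sp1 pointed both ways. Over all 5196 genes with at least 2 such probe sets, 26.5% had all of them lower and 22.1% all of them higher. A further 5 member probe sets were above the floor on 1 array only, in each case the chow array. The other 15 members above the floor on both arrays rest on 1 such probe set, Klf15, Klf16 and Cebpa among them.

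**Figure D2:**
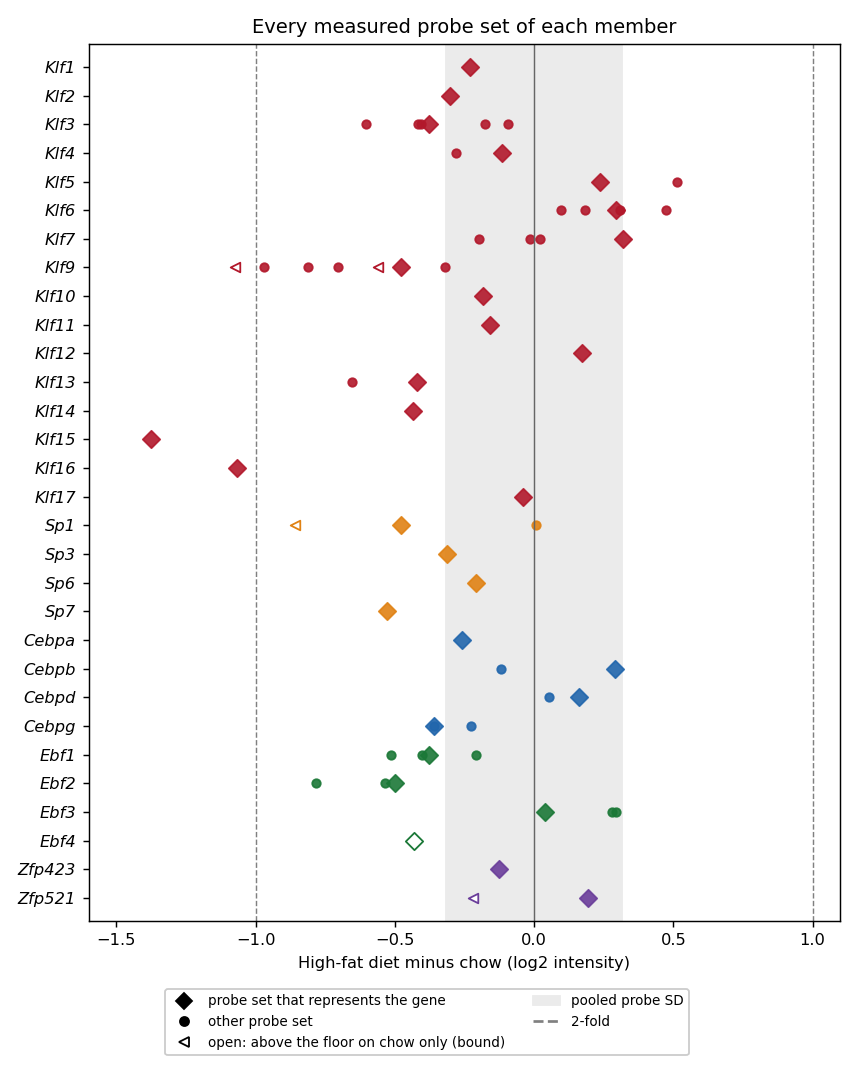
Difference between the diets (high-fat diet minus chow, log2 intensity) for every measured probe set of each member, with diamonds for the probe set that represents the gene and circles for the others. Open symbols are bounds, above the floor on chow only, the grey band is the pooled probe SD of 0.32, and dashed lines mark 2-fold. All symbols of Klf9, Klf3, Ebf1 and Ebf2 lie left of zero and all those of Klf6 and Klf5 right of it.

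Klf15 and Klf9, the Krüppel-like factors that glucocorticoids induce, had lower intensities after high-fat feeding in every probe set they have here. Klf15, which drives amino acid breakdown genes and the insulin-regulated glucose transporter gene Slc2a4, went from an intensity of 496.7 to 191.6, where here and in all later pairs the chow value comes first. Its difference was -1.37 in its only probe set, against a probe SD of 0.29 for its intensity range. Klf9, which activates Pparg during differentiation, went from 1628.1 to 1168.6, 1.39-fold lower in its brightest probe set. In the 5 probe sets that both arrays measured, the differences ran from -0.32 to -0.97, with a mean of -0.66 and an SD of 0.26. The other 2 probe sets of Klf9 were above the floor on chow only and were at least 1.47-fold and at least 2.10-fold lower. All 7 probe sets of Klf9 were therefore lower, by amounts that differed between them.

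Genes that act with Klf15 and Klf9 were read from lists of known targets and of the 2 inputs, glucocorticoids and the clock. Of 11 genes linked to Klf15, 5 were higher and 6 lower with a median of -0.01. Prodh, the proline dehydrogenase that opens proline breakdown, was 2.74-fold lower, from 434.2 to 158.5, a difference of -1.45. Bcat2, which starts the breakdown of branched-chain amino acids, went from 386.9 to 243.9 (-0.67), and Slc2a4 from 898.3 to 634 (-0.50, and -0.69 in its other probe set). Pck1, a gene of glyceroneogenesis, went the other way, from 1370.1 to 2241.4 (0.71), as did Slc25a20, the mitochondrial acylcarnitine carrier, from 267.3 to 371.8 (0.48). The list as a whole therefore had no common direction. Among 15 glucocorticoid-responsive genes 7 were higher and 8 lower, with a median of -0.06. Zbtb16, from 883.5 to 428.2, and Fkbp5, the chaperone partner of the glucocorticoid receptor, from 937.9 to 571.3, differed by -1.04 and -0.72. Pdk4 and Angptl4 went the other way and differed by 1.59 and 1.24. The part of glucocorticoids in the Klf15 and Klf9 values was not tested.

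Circadian clock genes were lower in 12 of 16 measured cases, with a median of -0.38 (-0.24 with the mean of all probe sets). Dbp, a clock output factor, went from 565.3 to 327.9 (-0.79) and Bhlhe40, a repressor in the clock loop, from 428.4 to 161 (-1.41). Hlf, a factor of the Dbp group, differed by -0.74. Arntl, a driver of the loop, went from 77.5 to 115.7 (0.58), although its other probe set differed by -0.55. Per1 differed by -0.13. Klf10, which cycles with the clock and responds to transforming growth factor beta, went from 254.2 to 223.8 (-0.18), within the probe SD. The hour of tissue collection is not given in the sources used here, and the part of the clock in the Klf15 and Klf9 values was not tested.

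Klf16 was the other member past 2-fold. This factor, a repressor at GC boxes, went from 141 to 67.3, a difference of -1.07 in its only probe set. Klf14, an imprinted factor linked to fat distribution and insulin sensitivity, went from 110.6 to 81.8 (-0.44), and Klf11, a regulator related to Klf10, from 165.6 to 148.4 (-0.16). Klf13, which acts upstream of Pparg in fat cell precursors, was lower in both probe sets above the floor, from 364.1 to 272.3 (-0.42) and from 146 to 92.9 (-0.65). Of these, Klf16, Klf14 and Klf13 exceeded the probe SD of their intensity range and Klf11 did not.

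Of the Krüppel-like factors that restrain differentiation, Klf3 and Klf2 were lower, and Klf7 had no settled direction. Klf3, a repressor of Cebpa that works through the corepressor CtBP, went from 886.1 to 682.5, 1.30-fold lower. In the 6 probe sets that both arrays measured, the differences ran from -0.10 to -0.60, with a mean of -0.35 and an SD of 0.18. The genes of its corepressor were lower too, Ctbp1 from 910.3 to 766.1 (-0.25) and Ctbp2 from 228 to 185 (-0.30), although the smallest difference among the probe sets of Ctbp2 was -0.01. Klf2, which represses Pparg in precursors, went from 458.2 to 371.9 (-0.30) in its only probe set. Klf7, another inhibitor, went from 124.6 to 155.3 (0.32), while its other 3 probe sets differed by -0.20, -0.02 and 0.02, so no direction can be given for it without naming the probe set.

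Klf2 and Klf4 are also shear-stress factors of endothelial cells, and the endothelial marker list was read beside them. Klf4, an early activator of Cebpb, was at 371.2 and 343 in its brighter probe set (-0.11) and at 173.4 and 142.7 in the other (-0.28). Of 14 endothelial markers 6 were higher and 8 lower, with a median of -0.08 and summed intensities of 5118.7 and 4492.7. Pecam1, the endothelial adhesion molecule, was at 296.2 and 309 (0.06). Among genes that Klf2 induces in endothelium, Thbd, the thrombomodulin gene, went from 1178 to 645.1 (-0.87) and Nos3, the endothelial nitric oxide synthase, from 287.7 to 400.3 (0.48). All 14 markers were above the floor on both arrays, and the part of endothelial cells in the Klf2 and Klf4 values was not tested.

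Klf6 and Klf5 were the Krüppel-like factors with all probe sets higher. Klf6, which represses the precursor gene Dlk1 and responds to injury, went from 431.1 to 528.1, 1.23-fold higher. Its 5 probe sets differed by 0.10 to 0.47, with a mean of 0.27 and an SD of 0.14. Dlk1 itself was at 43.4 and 56.7 (0.39). Klf5, which is induced by Cebpb and Cebpd and activates Pparg, was weak, at 57.3 and 67.5 (0.24) and at 51.8 and 74 (0.51) in its 2 probe sets above the floor, the first within and the second past the probe SD of 0.37 for dim probe sets. Of 17 immediate early genes, a class that Klf6 can belong to, 8 were higher and 9 lower, with a median of -0.04 (0.072 with plain probe sets, so its sign depends on the probe sets). Fos went from 112.3 to 136.8 (0.28) and Egr3 from 57.6 to 90.7 (0.66), while Nr4a1 went from 121 to 76.3 (-0.67) and Myc from 48.9 to 30.4 (-0.69). The part of an immediate early response in the Klf6 and Klf5 values was not tested.

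The remaining Krüppel-like factors were dim. Klf1, the red blood cell factor, was at 67.1 and 57.2 (-0.23). Of 3 measured red blood cell markers, the 2 above the floor on both arrays had a median of -0.02. Among them was Alas2, the haem synthesis enzyme of these cells, at 160 and 166.9. The remaining marker, Slc4a1, went from 6.5, under the floor, to 28.3. Summed intensities of all 3 markers were 218 and 242.9. Klf12, a repressor, was above the floor in 1 of 5 probe sets, at 29.5 and 33.2 (0.17), and Klf17, known from early embryos and germ cells, in 1 of 3, at 44 and 42.8 (-0.04). None of these 3 factors exceeded the probe SD. The Klf family as a whole had 12 lower genes out of 16 and a median difference of -0.21.

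In the probe sets that represent them, all 4 measured Sp genes were lower, with a median of -0.40, but the direction of Sp1 depends on the probe set. Sp1, the broadly expressed activator at GC boxes, went from 394.2 to 283.3 (-0.48) in the probe set that represents it, but was at 278.8 and 279.9 (0.01) in the next. Another, above the floor on chow only, was at least 1.81-fold lower. Sp3, which competes with Sp1 for the same boxes, went from 187.7 to 151 (-0.31) in its only probe set. Sp7, the bone-forming factor osterix, was at 78.8 and 54.7 (-0.53), and Sp6, an epithelial and tooth factor, at 90.7 and 78.5 (-0.21), with its other 3 probe sets below the floor. The highest values of Sp4, a neuronal factor, were 16.3 and 10.6. Sp5, a target of Wnt signalling, was at 2.8 and 3.2, and Sp8, a limb factor, at 14.3 and 24.2. Sp7 and Sp1 are adjacent protein-coding genes on chromosome 15. So are Sp4 and Sp8 on chromosome 12, and Klf5 and Klf12 on chromosome 14.

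The C/EBP genes were split, 2 lower and 2 higher, with a median of -0.05. Cebpa, which holds the mature fat cell state and its insulin sensitivity, went from 4672.8 to 3903.7. That is 1.20-fold lower (-0.26) in its only probe set, just past the probe SD of 0.20 for bright probe sets. Cebpg, a partner that lacks an activation domain of its own and lies near Cebpa on chromosome 7 with 1 protein-coding gene between them, went from 492.6 to 383.6 (-0.36). Its other probe sets differed by -0.23 and -0.36, a mean of -0.32 with an SD of 0.08 over 3. The early factors were not lower in their brighter probe sets. Cebpb went from 533.4 to 653 (0.29) in one probe set and from 168.4 to 154.9 (-0.12) in the other, and Cebpd from 304.2 to 340.4 (0.16) and from 70.2 to 72.8 (0.05). The direction of Cebpb therefore depends on the probe set, and Cebpd stayed within the probe SD.

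Pparg was lower together with Cebpa, and on the deposited scale most of their shared targets were not. Pparg, the nuclear receptor that acts with Cebpa, went from 1115.6 to 795.6 (-0.49) in its only probe set. Of 15 measured genes that Cebpa and Pparg bind or drive, 11 were higher and 4 lower, with a median of 0.07. That median was -0.053 with lowess centring and 0 under quantile normalization, so its sign depends on the scale. Lep and Aqp7, the leptin gene and the glycerol channel gene, differed by 0.63 and 1.03, whereas Irs1, an adaptor of the insulin receptor, went from 578.8 to 407.7 (-0.51). Adipoq was at 8372.1 and 8718.4 (0.06), near the top of the range of both arrays. On the deposited scale all 7 measured mature adipocyte markers were higher, with a median of 0.16 (0.045 with lowess centring) and summed intensities of 39449.9 and 43481.8. Several of these markers, Fabp4 and Adipoq among them, lie near the top of the range. The part of fat cell share in the Cebpa, Klf15 and Klf9 values was not tested.

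Ebf1 and Ebf2 were lower. Ebf3 was higher in all its probe sets, but each stayed within the probe SD of its intensity range. Ebf1, which promotes fat cell commitment and is also the defining factor of B cells, went from 286.5 to 220.5 (-0.38). Its 4 probe sets above the floor differed by -0.21 to -0.52, with a mean of -0.38 and an SD of 0.13. Ebf2, which marks precursors and brown and beige fat cells, went from 157.4 to 111.2 (-0.50), from 123.1 to 85 (-0.53) and from 125.7 to 73.1 (-0.78), a mean of -0.61 with an SD of 0.15. Ebf3 was at 125.7 and 129.2 (0.04) in its brightest probe set, and its other 2 probe sets differed by 0.28 and 0.29. Ebf4, an atypical member, went from 37.6 to 23.1, the latter under the floor, and was at least 1.35-fold lower. The ranges of the probe set differences of Ebf3 did not overlap those of Ebf1 or Ebf2 on these 2 arrays. Probe sets on the same arrays are not replicates, and how often this occurs between other genes was not counted.

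Markers of the cells that carry Ebf genes were read beside them. Of 6 measured B cell markers 2 were higher and 4 lower, with a median of -0.09 and summed intensities of 442.7 and 392.7. Cd79a, a chain of the B cell receptor, was at 41.2 and 50 (0.28), whereas Cd79b, its partner chain, went from 50.1 to 23.2, under the floor. Pou2af1 was below the floor on both arrays. Of 11 measured progenitor and fibroblast markers 8 were higher and 3 lower, with a median of 0.08 (0.22 with the mean of all probe sets) and summed intensities of 4765.7 and 6388.8. Mfap5 and Dpt, matrix genes of these cells, differed by 0.92 and 0.62, whereas F3 differed by -0.65. Pdgfra, a receptor of fat cell precursors, went from 289.3 to 182.7 (-0.66), though its other probe set differed by 0.19. The part of B cells and of progenitors in the Ebf values was not tested.

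Of the precursor factors outside these families, Zfp423 differed little, the direction of Zfp521 depended on the probe set, and Gata3 could not be read. Zfp423, which commits precursors to the white fat lineage and works with Ebf proteins, was at 150.2 and 137.6 (-0.13). Zfp521, which binds Ebf1 and opposes differentiation, was at 48.6 and 55.6 (0.19) in one probe set, while the other went from 32.5 to 12.5, under the floor, at least 1.16-fold lower. Gata3, an inhibitor of Pparg in precursors and a T cell factor, was at 2 and 2.8, below the floor on both arrays. T cell and innate lymphoid markers were measured in 8 of 11 cases, 6 higher and 2 lower, with a median of 0.26 (0.13 without a floor) and summed intensities of 751.6 and 882.1. Cd3e was at 46.8 and 56.1 (0.26), while Cd3d and Cd4 were below the floor. No level of Gata3 could be read from this probe set.

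Other regulators of fat cell differentiation, outside the member families, had a similar balance. Of 28 measured, 21 were lower (75.0%) and 7 higher, with a median of -0.25, and Foxc2, a factor of beige fat, was at least 2.13-fold lower, from 59.4 to below the floor at 18.2. Among those above the floor on both arrays, the largest differences were in Zfp638 (-0.63), a partner of Cebpb and Cebpd, Id4 (-0.60), Foxo1 (-0.58), which insulin holds out of the nucleus, and Zfp467 (-0.53), which promotes fat cell fate. Id3 and Twist1, which restrain differentiation or oxidative metabolism, differed by 0.32 and 0.41. Id1 and Id2, of the same family as Id3, went the other way and differed by -0.47 and -0.29. Zinc finger genes named Zfp, which share a fold with the Klf and Sp proteins and were added as a comparison once results were known, were lower in 60.5% of 228 measured genes with a median of -0.11. No list was tested against another, and these medians describe 2 arrays.

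**Figure D3:**
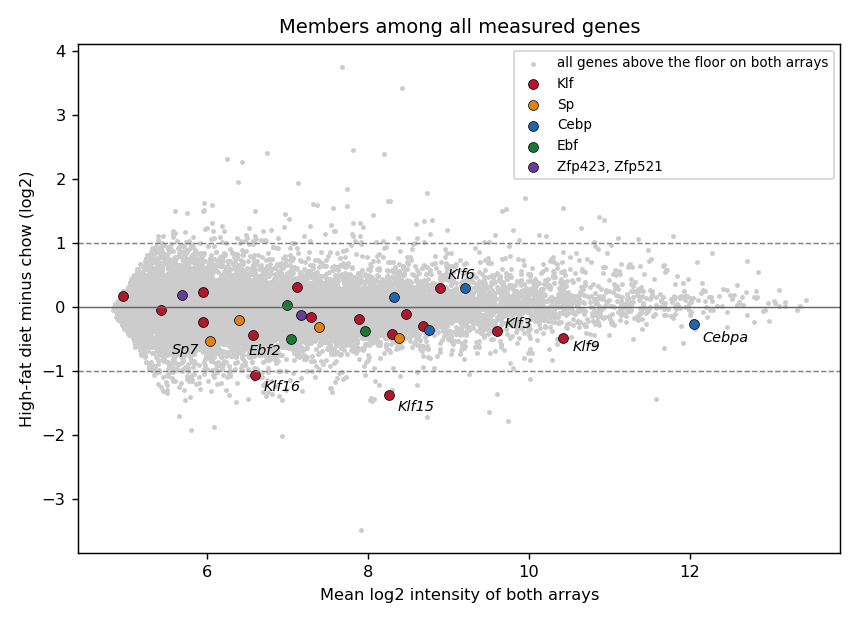
Difference between the diets (log2) against the mean log2 intensity of both arrays, for all genes above the floor on both arrays (grey) and the 29 members among them (coloured by family). Most members lie below zero within the cloud, and Klf15 and Klf16 lie below the dashed line of 2-fold.

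**Figure D4:**
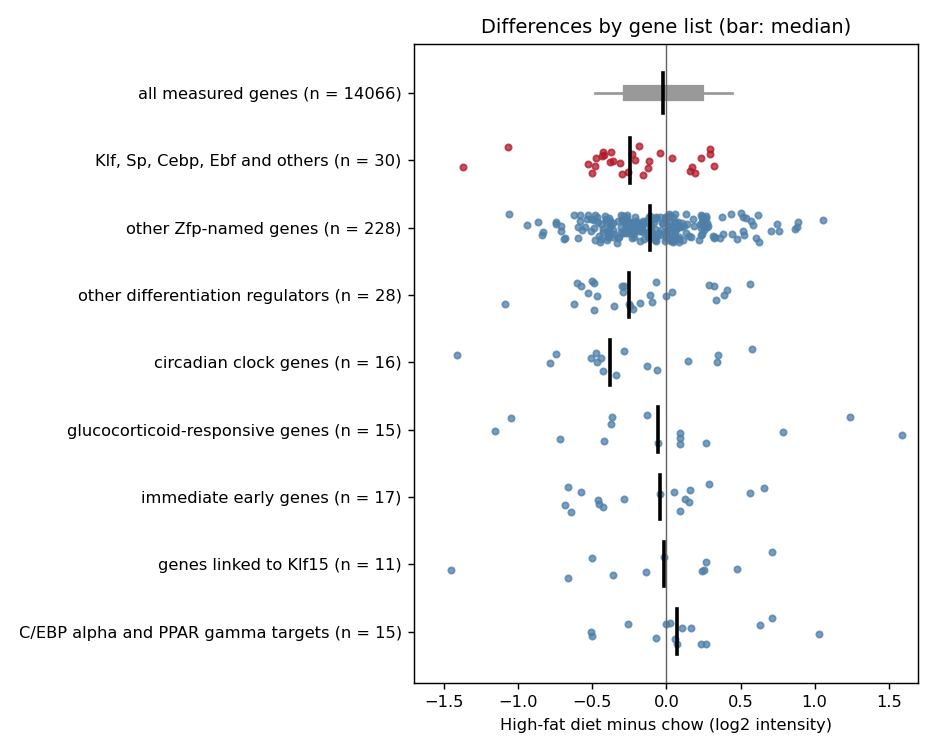
Difference between the diets (log2) for single genes of each list, with a black bar at the median. For all 14066 measured genes the grey box spans the middle 50% and the thin line the middle 80%. The medians of the members (-0.24), of other differentiation regulators (-0.25) and of clock genes (-0.38, or -0.24 with the mean of all probe sets) lie left of the median of all genes (-0.02).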

How the data were processed

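The authors deposited 1 linear intensity per probe set and array, 45037 in all, per the labels' protocols from biotinylated cRNA by the standard Affymetrix procedure. How probes were summarised and scaled is not given in the sources used here, and no detection calls were used. Means after trimming 2% at each end were 99.6 on both arrays, so intensities were used unscaled. Names came from the 2016 platform annotation, for the 34945 probe sets with 1 symbol. Values under the floor, the 40th percentile of the array, were raised to it before log2 was taken, and a difference with 1 array under the floor is a bound. The measured probe set with the highest mean log2 intensity represents a gene. All members are named. Of each list, at most the 4 genes with the largest differences are named, and genes tied to a member by role. Genes outside that rule, Msln and Slc4a1 among them, were chosen with their values known. The members and lists were chosen with earlier results of these data known, and 186 of 205 listed symbols had a probe set here. The other lists held smooth muscle, macrophage, epithelial and epididymis markers and reference genes, with medians of -0.31, 0.03, 0.05 and 0.04. Band SDs pool probe set differences around their gene mean, 0.32 over all intensities. With 1 array per diet no test was possible and the precision is limited by that number. Python 3.11.15, pandas 2.3.3, NumPy 2.4.6 and statsmodels 0.14.6 were used, and the steps were tested on simulated data.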

Additional observations from a re-analysis of the deposited data

How the results depend on the processing

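No paired analysis was possible because each diet had 1 array. In 9 alternatives (floor at the 20th or 60th percentile, no floor, quantile normalization, lowess or reference gene centring, and the mean, the smallest or only plain probe sets), 26 of 30 members kept their direction wherever they had a value. Cebpb (-0.12), Klf7 (-0.02) and Sp1 (0.01) turned with the probe set of smallest difference, and Zfp521 (-0.01) with the mean of its probe sets. The median of the members ran from -0.28 to -0.18 and the number lower from 20 to 23. The number measured was 26 at the 60th percentile, 32 at the 20th, 28 with plain probe sets and 34 without a floor. Of those 34, 23 were lower and 11 higher. Without a floor, on log2(intensity + 16), 1 member was 2-fold lower, since Klf16 differed by -0.91, and the Sp median was -0.28. Centring on the reference genes took off 0.04. With the smallest difference the Sp median was -0.26 and the Cebp median -0.17.

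Among the lists, T cell and innate lymphoid markers had a median of 0.13 without a floor. Progenitor and fibroblast markers had 0.22 with the mean and 0.19 with the smallest difference. Genes linked to Klf15 had -0.14 with the mean, the smallest difference or plain probe sets, and clock genes -0.24 with the mean. Epithelial and epididymis markers had -0.052 with the floor at the 20th percentile, -0.077 with the mean, -0.086 without a floor and -0.30 with the smallest difference. With lowess centring the Cebpa and Pparg targets had -0.053, mature adipocyte markers 0.045 (0.043 under quantile normalization) and reference genes -0.071. Immediate early genes had 0.072 with plain probe sets. Mesothelial markers had -0.34 with the floor at the 60th percentile, -0.52 with the mean, -0.30 with plain probe sets and -0.35 with the smallest difference. The cause of these shifts was not tested. Signals near the floor limit Klf1, Klf5, Klf12, Klf14, Klf16, Klf17, Sp6, Sp7, Ebf4 and Zfp521, all under an intensity of 100 on the high-fat diet array.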
